A study of Mus musculus with 13 samples.

Results

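The comparison described here is that of left ventricles from LXRα-Tg mice after transverse aortic constriction (TAC) with left ventricles from LXRα-Tg mice after sham surgery. The arrays were chosen by their labels, 3 LXRα-Tg TAC and 3 LXRα-Tg sham, which makes 6 of the 13 Illumina mouse BeadChip arrays of the series. The other 7 arrays, 4 Wt TAC and 3 Wt sham from wild-type littermates, entered the same fit and are given only where they show a difference. LXRα-Tg mice carry murine LXRα behind the αMHC promoter, which is active in cardiomyocytes, so that the transgene adds LXRα to that cell type alone. The line was made in FVB oocytes and backcrossed to C57BL/6, and the sources used here do not say how many founder lines there were. By the study's description all mice were males of 4 months, and LV RNA was taken 5 weeks after TAC or sham surgery. By label both groups share the transgene and differ in the surgery. No label says whether the 6 arrays came from 6 mice. The p-values measure only the spread between arrays within groups, estimated over all 13 arrays.

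LXRα, encoded by Nr1h3, is a nuclear receptor that binds oxysterols, pairs with a retinoid X receptor and induces genes of cholesterol export, of FA synthesis and of phospholipid remodelling. In macrophages, LXR also dampens inflammatory genes. TAC narrows the aorta and loads the left ventricle with pressure. In wild-type mice such a load is known to bring back fetal and stretch-responsive genes, to expand the collagen matrix and to lower genes of FA oxidation.

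Nr1h3, the gene of the transgene, did not follow the labels. Its signal was 31975, 27542 and 290.4 on TAC arrays 1, 2 and 3, against 163 (array 1), 397 (array 2) and 25187 (array 3) on the sham arrays. The level was thus low on TAC array 3 and on sham arrays 1 and 2, which went against their genotype label, as did 2 of the 7 Wt arrays. Eif2s3y, which lies on the Y chromosome, had no detected signal on TAC array 3 (−1.6) and read 109.3 to 449 on the other 5. Xist, which is made from the inactive X chromosome of females, was detected by both its probes on TAC array 3 (24.8 and 19.7) and by neither on the other 5, so this array also went against the described sex. Outside the comparison, the array labelled Wt sham 1 had no detected Eif2s3y signal either (−3.9). There a probe of Xist was detected (32) and its other probe was not. No array was moved, every direction below holds for the groups as labelled, and whether the surgery labels of these arrays hold was not tested. The main lists, and named genes that passed the unadjusted threshold and whose difference was over 1.5 times smaller there, are also given for the label-matched arrays, TAC arrays 1 and 2 against sham array 3, where the sham group is 1 array that is assumed to vary like the other groups. Of 118 genes named by rule that passed an unadjusted p under 0.05 on all 6 arrays, 116 kept their sign on the label-matched arrays, 46 had a difference over 1.5 times smaller or turned, and 22 passed again with these fewer arrays. The arrays detected 10360, 9829 and 9519 of 25697 probes in TAC hearts, against 10245, 10189 and 9873 in sham hearts. Ventricular cardiomyocyte markers, 13 measured of 15 listed, had summed levels of 175290 to 186780 in TAC hearts and 175000 to 194120 in sham hearts, so the tissue carried its label's markers.

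No single gene passed the test over all genes. Of 7837 genes, 0 were called at an adjusted p under 0.05 (limma, Benjamini-Hochberg adjustment, 0% called), and the smallest adjusted p was 0.176. At an unadjusted p under 0.05, 243 genes (3.1%) were higher and 309 (3.94%) lower in TAC hearts, 552 in all where chance gives 392. The t-test that the methods name, run unpaired because no label pairs the arrays, also called 0 genes after adjustment. All 3 TAC arrays lay above all 3 sham arrays in 451 genes (5.75%) and below them in 496 (6.33%), and 4058 genes (51.8%) had a log2 fold change above 0. The median log2 fold change was 0.0101. For each list, higher and lower give the direction of the group means, and its counts are read against these shares. Some genes stand in several lists, as Timp1, Psmb8 and Scd1 do, so the counts of different lists are not separate. Under median scaling of the arrays in place of quantile normalization, the median of all genes moved to −0.167 and the split became 30 higher and 761 lower. Levels are log2 values after background correction with an offset of 16, which makes fold changes of dim probes smaller than they are. Without sham array 2 the counts were 151 higher and 187 lower, and without sham array 3 they were 366 and 370.

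Genes that pressure overload typically brings up lay lower on the arrays labelled TAC than on those labelled sham in this genotype. The paper reports the opposite direction by RT-PCR: fetal genes were reactivated after TAC in both genotypes, though less in LXRα-Tg mice. Why the arrays as labelled differ from that report was not tested. Of 17 measured hypertrophy and fetal genes, 6 were lower and 0 higher below an unadjusted p of 0.05, and 1 was above 0. The median log2 fold change was −0.55, with a range of −2.75 to 0.16, and for 6 of the 17 all TAC arrays lay below all sham arrays. The 6 lower genes were Myh7, Timp1, Rcan1, Ccn2, Ankrd23 and Fhl1, of which Timp1 is given with the matrix. On the label-matched arrays the median was −0.55 again. The wild-type comparison ran the other way, with a median of 0.48 and 14 of 17 above 0 (53.1% of all genes). All Wt values here include the arrays Wt TAC 2 and Wt sham 3, which had high Nr1h3, and Wt sham 1, which had no detected Eif2s3y signal. No Wt value is given without these arrays. Of the 17, 8 were lower and 0 higher in the test of the difference between the 2 TAC effects (6.05% and 4.2% of all genes).

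The largest difference of the whole comparison among genes that passed the unadjusted threshold and did not overlap was that of Myh7, the β-myosin heavy chain of the fetal ventricle. Its log2 level was 5.76, 6.50 and 5.84 on TAC arrays 1, 2 and 3, against 9.81 (array 1), 9.26 (array 2) and 7.28 (array 3) on the sham arrays. The groups did not overlap, and the 2 sham arrays with low Nr1h3 stood highest. The log2 fold change was −2.75 (standard error 0.607, unadjusted p = 0.000582 by limma), a 6.73-fold lower level in TAC hearts. Slides were told apart by the number in the array titles, which no label calls a slide. The log2 fold change was −4.05 on slide 1, which held 1 array of each LXRα-Tg group, and −2.10 on slide 2. On the label-matched arrays it was −1.15 and did not pass (unadjusted p = 0.13 by limma). In Wt hearts it was 0.54, and the difference of the 2 TAC effects was −3.29 (standard error 0.831, unadjusted p = 0.00169 by limma). Myh6, the adult α-myosin heavy chain whose promoter drives the transgene, had a log2 fold change of 0.16 (unadjusted p = 0.288 by limma).

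Acta1, skeletal α-actin and another fetal gene, read 13.13, 14.23 and 12.64 in TAC hearts, against 14.43, 14.65 and 14.40 in sham hearts. Every TAC array lay below every sham array, but the spread among TAC arrays was wide, and the log2 fold change of −1.16 did not pass (standard error 0.736, unadjusted p = 0.14 by limma). Rcan1, the regulator of calcineurin that calcineurin itself induces, read 10.59, 11.65 and 10.50 in TAC hearts, against 12.38, 12.07 and 11.87 in sham hearts. Its log2 fold change was −1.19 (standard error 0.407, unadjusted p = 0.0121 by limma), and −1.75 by its other probe. Ankrd23, a stretch-responsive protein of the sarcomere, read 11.32, 11.87 and 10.82 in TAC hearts, against 12.64, 12.24 and 12.06 in sham hearts, a difference of −0.97 (standard error 0.32, unadjusted p = 0.00963 by limma). Both groups stood apart for both genes. Ccn2, a matricellular growth factor, had −0.99 and Fhl1, a LIM protein of the sarcomere, −0.81, and for Fhl1 TAC array 3 lay above sham array 3. With the label-matched arrays, Rcan1 stood at −0.75 and Ankrd23 at −0.46 and neither passed (unadjusted p = 0.307 and 0.361 by limma). The natriuretic peptides had overlapping groups. Nppa, the atrial natriuretic peptide, stood at −0.26 on the log2 scale (standard error 0.505), with 0.36 on the label-matched arrays, and Nppb, its B-type relative, −0.66 (standard error 0.586).

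Promoters of Myh7 and Acta1 are shown because both genes are classic bearers of the M-CAT element, the binding motif of TEAD factors, and because these genes lay lower together. Both sequences run from 250 bases before to 50 after the RefSeq start site (GRCm38.p6), and capitals mark the motif CATTCC, or GGAATG where it lies on the other strand. Myh7 lies at chr14:54994577-54994876 on the minus strand and Acta1 at chr8:123894726-123895025 on the minus strand.
Myh7: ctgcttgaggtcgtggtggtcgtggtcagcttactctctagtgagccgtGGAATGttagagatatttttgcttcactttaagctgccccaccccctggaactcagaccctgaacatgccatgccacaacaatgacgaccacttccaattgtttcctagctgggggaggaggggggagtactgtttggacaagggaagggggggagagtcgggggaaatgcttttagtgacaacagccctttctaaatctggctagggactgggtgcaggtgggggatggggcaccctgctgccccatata
Acta1: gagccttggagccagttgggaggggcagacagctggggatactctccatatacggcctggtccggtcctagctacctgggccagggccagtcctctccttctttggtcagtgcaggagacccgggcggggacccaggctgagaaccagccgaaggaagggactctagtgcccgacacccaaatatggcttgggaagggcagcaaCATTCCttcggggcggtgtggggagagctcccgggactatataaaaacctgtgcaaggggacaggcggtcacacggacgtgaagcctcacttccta
The match begins 201 bases before the start site in Myh7 and 46 before it in Acta1, and the window of the other Myh7 start site holds none. The motif was searched on both strands. It stood in 14.7% of 32851 mouse windows, in 14.7% of the 6400 tested genes with a window, in 8 of the 15 hypertrophy and fetal genes with one (53.3%) and in 4 of 17 Z-disc genes. A match describes these letters and is no measure of binding.

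Other parts of the contractile programme were nearer to level. Among 19 measured Z-disc and stretch-responsive proteins, 4 were lower and 0 higher below an unadjusted p of 0.05, 5 were above 0, and the median was −0.23. Synpo2l, a Z-disc protein, had −1.06 (standard error 0.383, unadjusted p = 0.0159 by limma) with TAC array 2 inside the sham range, and Pdlim1, an adaptor of α-actinin, had −0.38. Of 12 genes of calcineurin and NFAT signalling, Rcan1 was the only one to pass the unadjusted threshold. Of 15 adult contractile proteins, 8 were above 0. Tnni3, cardiac troponin I, was higher by 0.40 and Myl2, the ventricular regulatory light chain, lower by 0.27 on the log2 scale, each with no overlap. Synpo2l had −0.50, Pdlim1 −0.08 and Tnni3 0.15 on the label-matched arrays, and none of them passed.

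**Figure D1:**
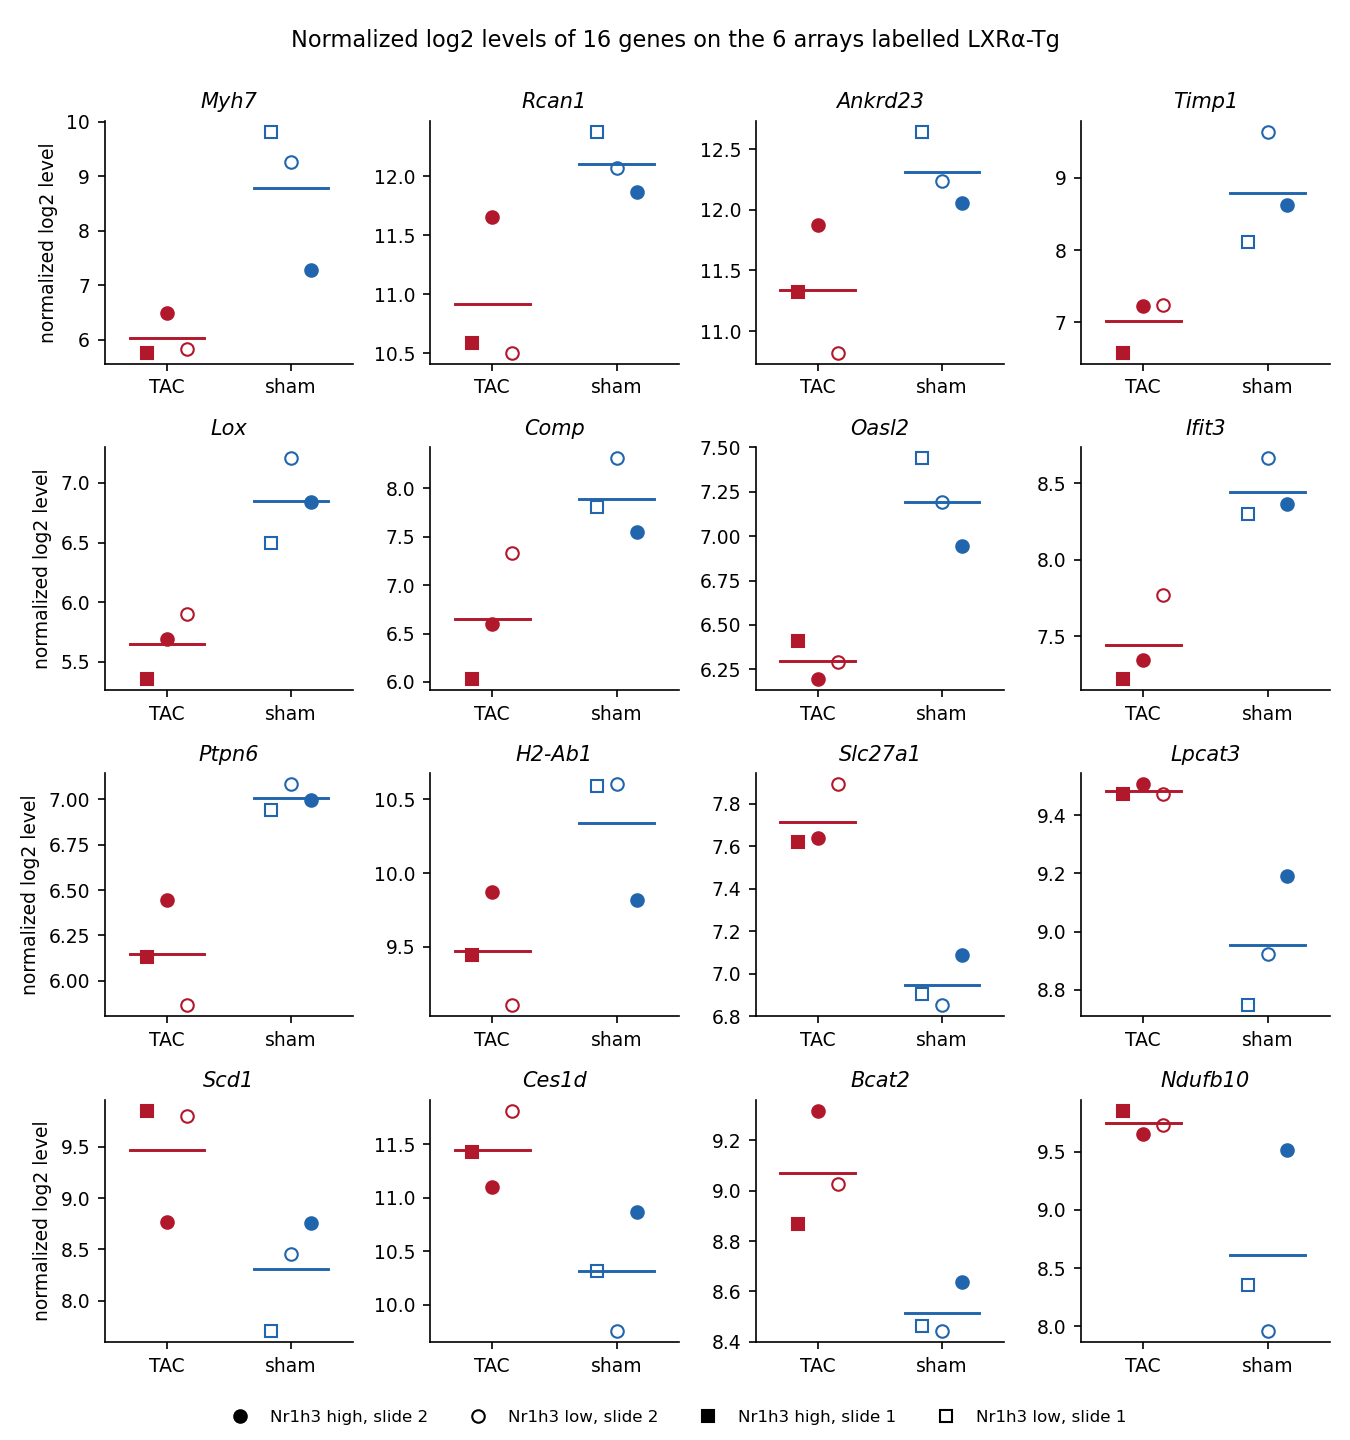
Normalized log2 level (y axis) of 16 genes on each of the 6 arrays. TAC arrays are red and at the left, sham arrays blue and at the right, lines are group means, filled symbols have high Nr1h3, open ones low, squares are slide 1 and circles slide 2. For Myh7 the 3 TAC arrays lie between 5.76 and 6.50 and the 3 sham arrays between 7.28 and 9.81, with the filled sham array lowest.

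Matrix genes lay lower across their classes. Collagens are the main fibres of scar and interstitium, small leucine-rich proteoglycans space those fibres, and elastic and matricellular proteins bind them to cells. In bulk tissue fewer cells of a type and less RNA per cell cannot be told apart, which holds for these genes of fibroblasts and for the immune genes further on. Of 17 collagens, 4 were lower and 0 higher below an unadjusted p of 0.05, 1 was above 0, and the median was −0.40, against 0.28 in Wt hearts with 14 of 17 above 0. In the test of the difference of the TAC effects, 10 of the 17 collagens were lower and 0 higher. The collagen median was −0.53 on slide 1 and −0.41 on slide 2, and −0.45 on the label-matched arrays. With no filter on dim probes it was −0.12.

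Col16a1, a collagen that associates with fibrils, read 7.26, 7.12 and 7.31 in TAC hearts, against 8.08, 8.06 and 7.87 in sham hearts. This was the tightest pair of groups among the collagens named here, and the log2 fold change was −0.78 (standard error 0.236, unadjusted p = 0.00597 by limma). Col1a1, the major fibrillar collagen, read 7.88, 9.17 and 8.30 in TAC hearts, against 8.86, 9.41 and 8.96 in sham hearts. Its groups overlapped through TAC array 2, and the log2 fold change of −0.62 did not pass (standard error 0.32, unadjusted p = 0.0735 by limma). Col3a1, its partner in fibrils, had −0.95 by its brightest probe (unadjusted p = 0.044 by limma) and 0.09 by another, so its probes disagreed. It was detected on 2 of 3 TAC and 3 of 3 sham arrays, and had −0.30 on the label-matched arrays. Col15a1 of the basement membrane zone had −0.45. Col9a2, of a cartilage collagen, had −0.57 and was detected on 1 of 3 TAC and 3 of 3 sham arrays.

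Of the enzymes that fold and crosslink collagen, 4 of 18 were lower and 0 higher below an unadjusted p of 0.05, with a median of −0.17. Lox, the oxidase that crosslinks collagen and elastin, read 5.36, 5.69 and 5.91 in TAC hearts, against 6.50, 7.21 and 6.84 in sham hearts. The groups stood apart on both slides, and the log2 fold change was −1.20 (standard error 0.314, unadjusted p = 0.00223 by limma). Its relative Loxl1 had −0.60. Of 8 small leucine-rich proteoglycans, 3 were lower, 1 was above 0 and the median was −0.39. Bgn, biglycan, read 12.07, 12.54 and 12.81 in TAC hearts, against 12.98, 13.40 and 13.13 in sham hearts, a difference of −0.70 (standard error 0.246, unadjusted p = 0.0145 by limma). Podn was detected on 0 of 3 TAC and on 3 of 3 sham arrays, and its level was at least 1.11-fold lower in TAC hearts (adjusted p = 0.513 by limma). Such a bound sets the group with signal against the lowest level detected on each array of the other. The Podn probe was detected on no other of the 13 arrays. The gene was thus tested, and counted among the 3 lower, only through its sham signal.

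Comp, a matrix glycoprotein best known from cartilage, read 6.03, 6.59 and 7.34 in TAC hearts, against 7.81, 8.31 and 7.55 in sham hearts. Its log2 fold change was −1.24 (standard error 0.333, unadjusted p = 0.0026 by limma), against 0.86 in Wt hearts. Sparc, a collagen-binding matricellular protein, had −0.57 here and 0.55 in Wt hearts, and 3 of the 12 matricellular genes were lower with 0 higher (median −0.21). Mfap5, a protein of microfibrils, read 8.42, 8.95 and 8.71 in TAC hearts, against 9.52, 10.18 and 9.85 in sham hearts. The difference was −1.16 (standard error 0.306, unadjusted p = 0.00232 by limma), that of Mfap4 −1.17, and 3 of 12 elastic fibre and microfibril genes were lower with 0 higher (median −0.21). For each of these genes the groups did not overlap.

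Timp1, which inhibits metalloproteinases and is induced in strained and inflamed tissue, had the second largest difference. It read 6.58, 7.23 and 7.24 in TAC hearts, against 8.11, 9.64 and 8.63 in sham hearts. The log2 fold change was −1.78 (standard error 0.414, unadjusted p = 0.000899 by limma), a 3.43-fold lower level in TAC hearts, and its other probe gave −1.76. Its difference on the label-matched arrays was −1.72 (unadjusted p = 0.00669 by limma). In Wt hearts it was 0.83, and the difference of the TAC effects was −2.61 (standard error 0.567, unadjusted p = 0.000509 by limma). Of 15 metalloproteinases and inhibitors, 5 were lower and 0 higher, among them the membrane collagenase activator Mmp14 (−0.44) and Mmp23 (−0.60). Of 18 TGF-β ligands, receptors and SMADs, only Tgfb3, a ligand, passed the unadjusted threshold. It read 6.20, 6.62 and 6.81 in TAC hearts, against 7.09, 7.52 and 7.15 in sham hearts, a difference of −0.71 (standard error 0.203, unadjusted p = 0.00398 by limma).

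Fibroblast markers moved with the matrix genes. Of 13 measured, 5 were lower and 0 higher, with a median of −0.41, and several are matrix genes counted above. Their summed level was 14919 to 15906 in TAC hearts and 15928 to 18891 in sham hearts, and Pi16, a surface marker of fibroblasts, had −0.80 (standard error 0.22). Without sham array 2 the median was −0.16. Their part in the matrix results was not tested.

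**Figure D2:**
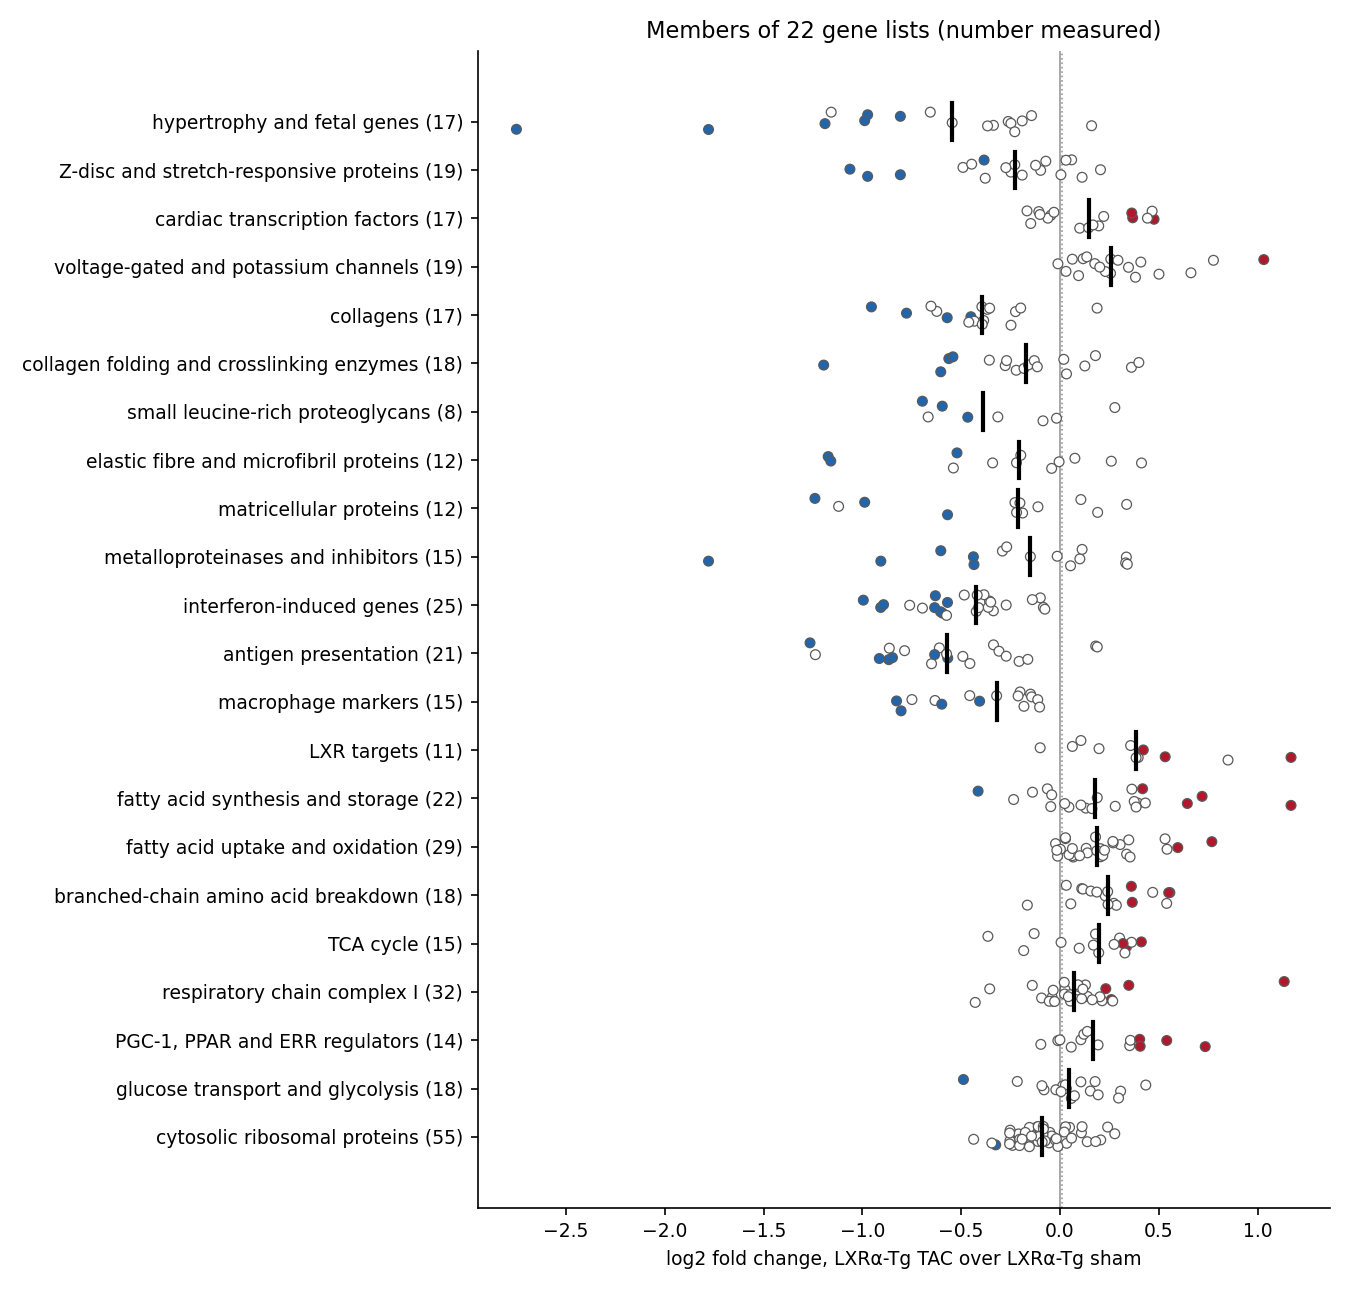
Log2 fold change, TAC over sham (x axis), of every measured member of 22 gene lists (rows). Filled red and blue points had an unadjusted p under 0.05 and were higher or lower in TAC hearts, black bars are list medians and the dotted line is the median of all genes (0.0101). Hypertrophy, collagen, interferon and antigen presentation members lie mostly left of the line, and those of FA oxidation and branched-chain amino acid breakdown mostly right of it.

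Interferon-induced genes lay lower in TAC hearts without exception. None of the 25 measured was above 0, 8 were lower and 0 higher below an unadjusted p of 0.05, and 11 had all TAC arrays below all sham arrays. The median was −0.42, at −0.43 on slide 1, −0.47 on slide 2 and −0.28 on the label-matched arrays. The median was also −0.42 in Wt hearts, where 10 of 25 were lower and 0 higher (2.13% and 4.75% of all genes), and 2 of 25 were lower in the test of the difference.

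The promoters of Ifit3 and Isg15 carry the pattern that interferon-induced genes are known for, and are printed to show it. Capitals mark the core of the interferon-stimulated response element, GAAA repeated after any 2 bases (TTTC on the other strand). Ifit3 lies at chr19:34583279-34583578 on the plus strand and Isg15 at chr4:156200769-156201068 on the minus strand (RefSeq, GRCm38.p6, 250 bases before to 50 after the start site).
Ifit3: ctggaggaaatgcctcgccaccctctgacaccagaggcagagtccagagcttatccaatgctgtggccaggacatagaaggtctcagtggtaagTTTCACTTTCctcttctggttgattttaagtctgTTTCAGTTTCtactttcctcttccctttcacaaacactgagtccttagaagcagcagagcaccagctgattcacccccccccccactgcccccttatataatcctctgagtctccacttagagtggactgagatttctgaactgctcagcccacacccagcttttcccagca
Isg15: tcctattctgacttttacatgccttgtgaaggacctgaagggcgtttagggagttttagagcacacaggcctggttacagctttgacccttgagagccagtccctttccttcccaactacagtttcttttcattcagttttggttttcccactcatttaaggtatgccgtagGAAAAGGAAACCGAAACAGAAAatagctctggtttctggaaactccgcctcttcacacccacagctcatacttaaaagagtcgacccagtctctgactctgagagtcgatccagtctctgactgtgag
Ifit3 has 2 matches, which begin 156 and 122 bases before the start site, and Isg15 has 3 that overlap, at 78, 72 and 66 bases before it. Searched on both strands, this core stood in 3.44% of the 32851 windows and in 3.53% of the 6400 tested genes with a window. It stood in 11 of the 21 interferon-induced genes with a window (52.4%) and in 2 of 16 genes of antigen presentation. The window of Oasl2 held none.

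Oasl2, of the oligoadenylate synthetase family that senses viral RNA, shared the smallest adjusted p of the comparison. It read 6.41, 6.20 and 6.29 in TAC hearts, against 7.44, 7.19 and 6.94 in sham hearts. The groups stood apart with little spread, and the log2 fold change was −0.89 (standard error 0.14, unadjusted p = 2.63e-05 and adjusted p = 0.176 by limma), with −0.57 by its other probe. With slide as a block in the fit it was the 1 gene called (adjusted p = 0.0492 by limma), and in Wt hearts it had −0.51. Ifit3, an antiviral protein of infected cells, read 7.22, 7.35 and 7.77 in TAC hearts, against 8.30, 8.66 and 8.36 in sham hearts. Its difference of −1.0 (standard error 0.219, unadjusted p = 0.000578 by limma) stood at −1.08 on the label-matched arrays, and 2 other probes gave −0.85 and −0.67. Isg15, a ubiquitin-like modifier, read 5.77, 5.85 and 6.19 in TAC hearts, against 6.22, 6.95 and 6.36 in sham hearts, a difference of −0.57 (standard error 0.186, unadjusted p = 0.00939 by limma). Irf7, the factor that amplifies the interferon response, was detected on 0 of 3 TAC and 2 of 3 sham arrays and was at least 1.41-fold lower (adjusted p = 0.513 by limma). Its signal was 48.3, 68 and 17.9 on sham arrays 1, 2 and 3, so this bound rests on the sham arrays with low Nr1h3. On the label-matched arrays the Irf7 difference was −0.38, with no detected signal on any of them.

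Genes of antigen presentation lay lower in TAC hearts, but sham array 3 stood with the TAC arrays. Of 21 measured, 6 were lower and 0 higher, 2 were above 0, and the median was −0.57. H2-Ab1, a chain of MHC class II, read 9.44, 9.87 and 9.10 in TAC hearts, against 10.59, 10.60 and 9.82 in sham hearts. The sham array with high Nr1h3 lay within the TAC range, and the log2 fold change of −0.87 (standard error 0.331, unadjusted p = 0.0214 by limma) became −0.16 on the label-matched arrays. Over the whole list the median there was 0.026. Mean levels of the list, each gene centred on the 6 arrays, were −0.13, −0.27 and −0.44 in TAC hearts, against 0.61, 0.51 and −0.29 in sham hearts. B2m, the light chain of MHC class I, had −0.57, and Psmb8, a subunit of the immunoproteasome, −0.63, against −0.08 and −0.16 on the label-matched arrays. In Wt hearts the median was −0.41, and 0 of 21 genes passed in the test of the difference.

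Macrophage markers lay lower too, all 15 of them below 0, with 4 lower below an unadjusted p of 0.05 and a median of −0.32. In Wt hearts their median was 0.10, with 8 of 15 above 0. In the test of the difference, 3 of 15 were lower and 0 higher (6.05% and 4.2% of all genes). Fcer1g, a signalling chain of Fc receptors, read 9.05, 8.91 and 8.04 in TAC hearts, against 9.39, 9.83 and 9.19 in sham hearts, a difference of −0.80 (standard error 0.261, unadjusted p = 0.00887 by limma). Aif1, an actin-binding protein of macrophages, had −0.83 and C1qb, a chain of complement C1q, −0.60. Fcer1g had −0.21, Aif1 −0.22 and C1qb −0.23 on the label-matched arrays, and none of them passed. The summed level of the markers was 12445 to 12526 in TAC hearts and 13301 to 18616 in sham hearts, and its part in the interferon and antigen presentation results was not tested. Without TAC array 2 the median was −0.50. Ptpn6, a phosphatase of blood cells named here for the other smallest adjusted p, read 6.13, 6.44 and 5.87 in TAC hearts, against 6.94, 7.08 and 7.0 in sham hearts. Its log2 fold change was −0.86 (standard error 0.143, unadjusted p = 4.48e-05 and adjusted p = 0.176 by limma), against 0.14 in Wt hearts.

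Among 38 chemokines, interleukins and receptors, 4 were lower and 1 higher. Cx3cr1, the fractalkine receptor of monocytes and resident macrophages, read 5.72, 6.13 and 5.66 in TAC hearts, against 6.34, 6.26 and 7.14 in sham hearts. The difference was −0.75 (standard error 0.213, unadjusted p = 0.00394 by limma) and it was −1.22 on the label-matched arrays. Il15, a cytokine that sustains natural killer cells and is also made in muscle, went the other way. It read 9.64, 9.49 and 10.26 in TAC hearts, against 8.90, 9.01 and 8.88 in sham hearts, a difference of 0.87 (standard error 0.229, unadjusted p = 0.00232 by limma), with 0.47 and 0.71 by its other probes. Ccl8, a chemokine of macrophages, had −1.17 (−0.43 on the label-matched arrays) and was detected on 2 of 3 TAC and 3 of 3 sham arrays.

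LXR target genes lay higher in TAC hearts, although both groups carry the transgene by label. Of 11 measured of 23 listed, 3 were higher and 0 lower below an unadjusted p of 0.05, and 10 were above 0. The median was 0.38, against −0.19 in Wt hearts. It was 0.18 under median scaling, 0.20 on the label-matched arrays, and 0.113 without sham array 1. Mean centred levels were 0.28, 0.03 and 0.29 in TAC hearts, against −0.56, −0.05 and 0.01 in sham hearts, so TAC array 3, with low Nr1h3, had the highest value and sham array 1 the lowest. Abca1, the cholesterol exporter, Srebf1, the regulator of FA synthesis that LXR induces, and Fasn, FA synthase, were not detected on enough arrays to be tested.

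Lpcat3, which LXR induces to place polyunsaturated FA in phospholipids, read 9.48, 9.51 and 9.48 in TAC hearts, against 8.75, 8.92 and 9.19 in sham hearts. The TAC arrays were nearly equal, and the log2 fold change was 0.53 (standard error 0.138, unadjusted p = 0.00208 by limma). Scd1, the desaturase that makes monounsaturated FA, read 9.85, 8.77 and 9.80 in TAC hearts, against 7.70, 8.46 and 8.76 in sham hearts. TAC array 2 was level with sham array 3, and the difference of 1.17 (standard error 0.512, unadjusted p = 0.0403 by limma) was 0.98 without TAC array 1 and no longer passed (unadjusted p = 0.118 by limma). Lpcat3 had 0.30 and Scd1 0.55 on the label-matched arrays, and neither passed. Smpdl3a, a phosphodiesterase that LXR induces, had 0.42 with overlapping groups. In the test of the difference of the TAC effects, Lpcat3 had 0.79 (unadjusted p = 0.00116 by limma) and Scd1 2.18 (unadjusted p = 0.00848 by limma).

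Of 22 genes of FA synthesis and storage, 4 were higher and 1 lower, and the median of 0.17 was 0.014 under median scaling, 0.30 without TAC array 2 and 0.076 without TAC array 3. Plin4, a protein that coats lipid droplets, read 10.70, 10.73 and 10.96 in TAC hearts, against 10.03, 9.98 and 10.45 in sham hearts, a difference of 0.64 (standard error 0.146, unadjusted p = 0.000744 by limma). Thrsp, a regulator of lipogenesis, had 0.72 and Elovl5, an elongase, 0.42, all 3 with no overlap. The 1 lower gene was Agpat2 of triglyceride synthesis (−0.41), named after its value was seen. Ces1d, a carboxylesterase that hydrolyses triglycerides, is counted here among adipocyte markers. It read 11.43, 11.10 and 11.81 in TAC hearts, against 10.32, 9.75 and 10.87 in sham hearts, with a difference of 1.14 (standard error 0.292, unadjusted p = 0.0019 by limma) and no overlap. On the label-matched arrays Ces1d had 0.40 (unadjusted p = 0.323 by limma), Plin4 0.26 and Elovl5 0.22, and none of them passed. Adipocyte markers moved in part with these genes: 2 of 8 were higher, their summed level was 29330 to 33952 in TAC hearts and 27483 to 29473 in sham hearts, and Adipoq, which defines the type, had a log2 fold change of −0.17. Of 14 genes of cholesterol synthesis and uptake, 0 passed in either direction.

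Genes that burn fuel in mitochondria lay slightly higher in TAC hearts. Of 29 genes of FA uptake and oxidation, 26 were above 0 and 8 had all TAC arrays above all sham arrays, while 2 were higher and 0 lower below an unadjusted p of 0.05. The median was 0.19, against −0.11 in Wt hearts, and it was 0.30 on the label-matched arrays. Under median scaling it was 0.063, which lay above the median of all genes there. Slc27a1, an FA transporter, read 7.62, 7.64 and 7.89 in TAC hearts, against 6.90, 6.85 and 7.09 in sham hearts. Both groups were tight and apart, and the log2 fold change was 0.77 (standard error 0.193, unadjusted p = 0.00162 by limma). Acaa2, the thiolase of mitochondrial β-oxidation, had 0.60 (standard error 0.266).

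Breakdown of branched-chain amino acids had 17 of 18 genes above 0, 9 with no overlap and 4 higher against 0 lower below an unadjusted p of 0.05. Its median of 0.24 was −0.16 in Wt hearts, 0.23 on the label-matched arrays and 0.068 under median scaling. Bcat2, the mitochondrial aminotransferase that takes the first step, read 8.87, 9.32 and 9.02 in TAC hearts, against 8.46, 8.44 and 8.64 in sham hearts, a difference of 0.56 (standard error 0.167, unadjusted p = 0.00555 by limma). Ivd, the dehydrogenase of the leucine branch, had 0.55, Pcca, a subunit of propionyl-CoA carboxylase, 0.37 and Hibadh of the valine branch 0.36. These 3 genes had 0.26, 0.18 and 0.21 on the label-matched arrays, and none of them passed. In the test of the difference of the TAC effects, 5 of the 18 were higher and 0 lower.

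The TCA cycle had 12 of 15 genes above 0, 3 of them higher and 0 lower, with a median of 0.20 (0.32 without sham array 1 and 0.126 without sham array 2), and Sdhc, an anchor of succinate dehydrogenase, had 0.41 (0.12 on the label-matched arrays). Complex I of the respiratory chain had 4 of 32 higher and 0 lower. Its subunit Ndufb10 read 9.85, 9.65 and 9.73 in TAC hearts, against 8.36, 7.95 and 9.52 in sham hearts. The 2 sham arrays with low Nr1h3 stood far below the rest, and the difference of 1.13 (standard error 0.356, unadjusted p = 0.00728 by limma) was 0.23 on the label-matched arrays. Complexes II to IV had 1 of 26 higher, ATP synthase 0 of 15 and mitochondrial ribosomal proteins 1 of 71, each with 0 lower. Of 27 mitochondrial carriers of family 25, 3 were higher and 0 lower, led by Slc25a34 (0.46) and Slc25a42 (0.72), a carrier of coenzyme A, while the median of 0.10 was −0.029 under median scaling. Both carriers were nearer to 0 on the label-matched arrays (0.28 and 0.38), and neither passed.

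Regulators of these pathways lay on the same side. Of 14 PGC-1, PPAR and ERR regulators, 4 were higher and 0 lower below an unadjusted p of 0.05, 11 were above 0 and 5 had no overlap, with a median of 0.17 that was −0.05 under median scaling. Ppargc1a, the coactivator of mitochondrial genes, read 9.42, 9.11 and 9.47 in TAC hearts, against 8.83, 7.95 and 9.02 in sham hearts, a difference of 0.73 (standard error 0.337, unadjusted p = 0.0487 by limma). Ncoa1, a coactivator of nuclear receptors, had 0.54 (standard error 0.146, unadjusted p = 0.00273 by limma), Esrra, the receptor ERRα, 0.41 and Rxrg, a retinoid X receptor that can pair with LXR, 0.40. Ncoa1 and Rxrg had −0.44 and −0.35 in Wt hearts. With the label-matched arrays, Ppargc1a had 0.25, Ncoa1 0.29 and Esrra 0.15, and none of them passed, while Rxrg had 0.54.

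**Figure D3:**
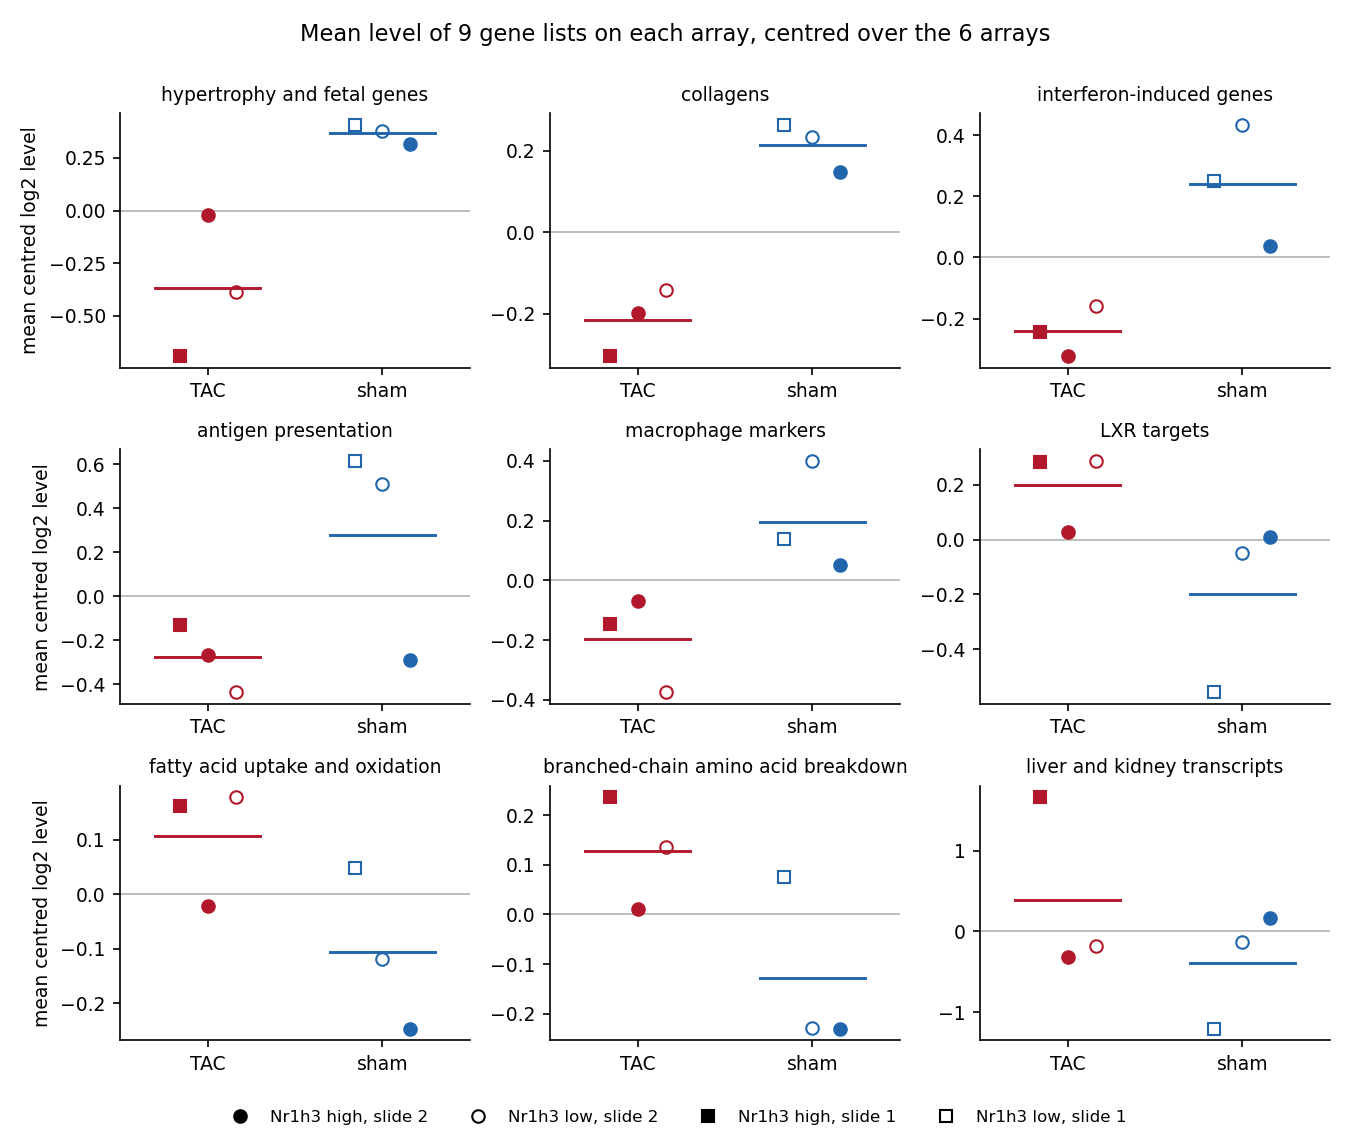
Mean centred log2 level (y axis) of 9 gene lists on each of the 6 arrays, each gene centred on its mean over the 6. TAC arrays are red and at the left, sham arrays blue and at the right, and filled symbols have high Nr1h3. Hypertrophy genes lie between −0.69 and −0.02 in TAC hearts and between 0.31 and 0.41 in sham hearts, and the filled sham array lies among the TAC arrays for antigen presentation.

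Genes of glucose use showed few differences. Of 18 genes of glucose transport and glycolysis, 0 were higher and 1 lower below an unadjusted p of 0.05. That was Pfkp, the platelet form of phosphofructokinase, with a log2 fold change of −0.49 (standard error 0.205, unadjusted p = 0.0336 by limma). The transporters Slc2a1 (GLUT1) and Slc2a4 (GLUT4) had 0.31 (standard error 0.253, with −0.16 on the label-matched arrays) and 0.03 (standard error 0.162). Hk2, the muscle hexokinase, read 12.41, 12.50 and 12.65 in TAC hearts, against 12.17, 12.09 and 12.41 in sham hearts and just missed the unadjusted threshold (0.30, standard error 0.138, unadjusted p = 0.0518 by limma). In the hexosamine pathway, which makes the sugar of O-GlcNAc, Uap1 was lower by 0.50 and Gne, which diverts the product to sialic acid, higher by 0.41 on the log2 scale, and the other 4 of 6 did not pass. Pdk4, the kinase that shuts pyruvate dehydrogenase, read 13.01, 12.31 and 10.78 in TAC hearts, against 10.66, 10.86 and 11.70 in sham hearts. The 2 TAC arrays with high Nr1h3 stood above all others, TAC array 3 lay among the sham arrays, and the difference of 0.96 did not pass (standard error 0.491, unadjusted p = 0.0717 by limma). Angptl4, a lipase inhibitor of fasting, showed the same split, at 8.50, 8.51 and 6.93 in TAC hearts, against 6.04, 7.06 and 6.93 in sham hearts (1.30, standard error 0.673). Pdp2, the phosphatase that opposes Pdk4, had 0.87 with overlapping groups (0.42 on the label-matched arrays), and 0 of 21 genes of fasting and glucocorticoid response passed.

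Cardiac transcription factors included 3 of 17 that were higher and 0 lower. Nkx2-5, the homeodomain factor of cardiomyocyte identity, read 7.91, 8.33 and 8.28 in TAC hearts, against 7.52, 7.74 and 7.84 in sham hearts, a difference of 0.48 (standard error 0.144, unadjusted p = 0.00582 by limma). Meis1, a homeobox factor, had 0.36 and Gata6 0.37 (0.28 for Nkx2-5 and 0.13 for Gata6 on the label-matched arrays, where neither passed), while Gata4 (0.10) and Mef2c (−0.05) did not pass. The median of the list, 0.14, was −0.057 under median scaling. Of 19 voltage-gated and potassium channels, 18 were above 0 and 1 passed, with a median of 0.26 that was 0.041 under median scaling and 0.169 without TAC array 3. That gene was Kcnv2, a silent subunit of potassium channels, at 6.81, 5.46 and 6.67 in TAC hearts, against 5.41, 5.15 and 5.29 in sham hearts (1.03, standard error 0.432). In calcium cycling, 2 of 15 were higher. Hrc, a calcium-binding protein of the sarcoplasmic reticulum, had 0.33 and Ryr2, its release channel, was detected on 3 of 3 TAC and 0 of 3 sham arrays by this dim probe, at least 1.17-fold higher (adjusted p = 0.561 by limma).

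Growth and stress genes were mixed. Of 18 cell cycle genes, 1 was higher and 4 lower. Cdkn1c, the inhibitor p57 that halts the cycle, read 10.26, 10.05 and 10.52 in TAC hearts, against 9.65, 9.45 and 9.61 in sham hearts. Its log2 fold change of 0.71 (standard error 0.153, unadjusted p = 0.000501 by limma) ran against that of Mcm5 of the replication helicase (−0.52). Cdk1 and Bub1b of mitosis were detected on 0 of 3 TAC and 3 of 3 sham arrays, at least 1.04-fold and 1.1-fold lower. Their probes were detected on no other of the 13 arrays. Both genes thus entered the count of 4 lower only through their sham signal. Of 15 genes of the ATF4 stress response, 2 were lower, led by Nupr1, a stress-induced chromatin protein, at 8.14, 8.76 and 8.42 in TAC hearts, against 9.27, 9.67 and 9.11 in sham hearts (−0.91, standard error 0.26, unadjusted p = 0.00391 by limma). Cytosolic ribosomal proteins had 13 of 55 above 0 and a median of −0.09, which was 0.036 on the label-matched arrays. Proteasome subunits had 6 of 32 above 0, 8 with all TAC arrays below all sham arrays and a median of −0.09. Glutathione metabolism had 1 of 44 higher and 1 lower, heat shock proteins 1 of 28 higher, and creatine supply, AMP-activated kinase and circadian genes 0 in either direction. The apoptosis inhibitor Bcl2 (−0.24), the kinase subunit Prkaa2 (0.17, with −0.09 on the label-matched arrays) and the common reference genes Gapdh (−0.08) and Rplp0 (−0.06) did not pass.

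**Figure D4:**
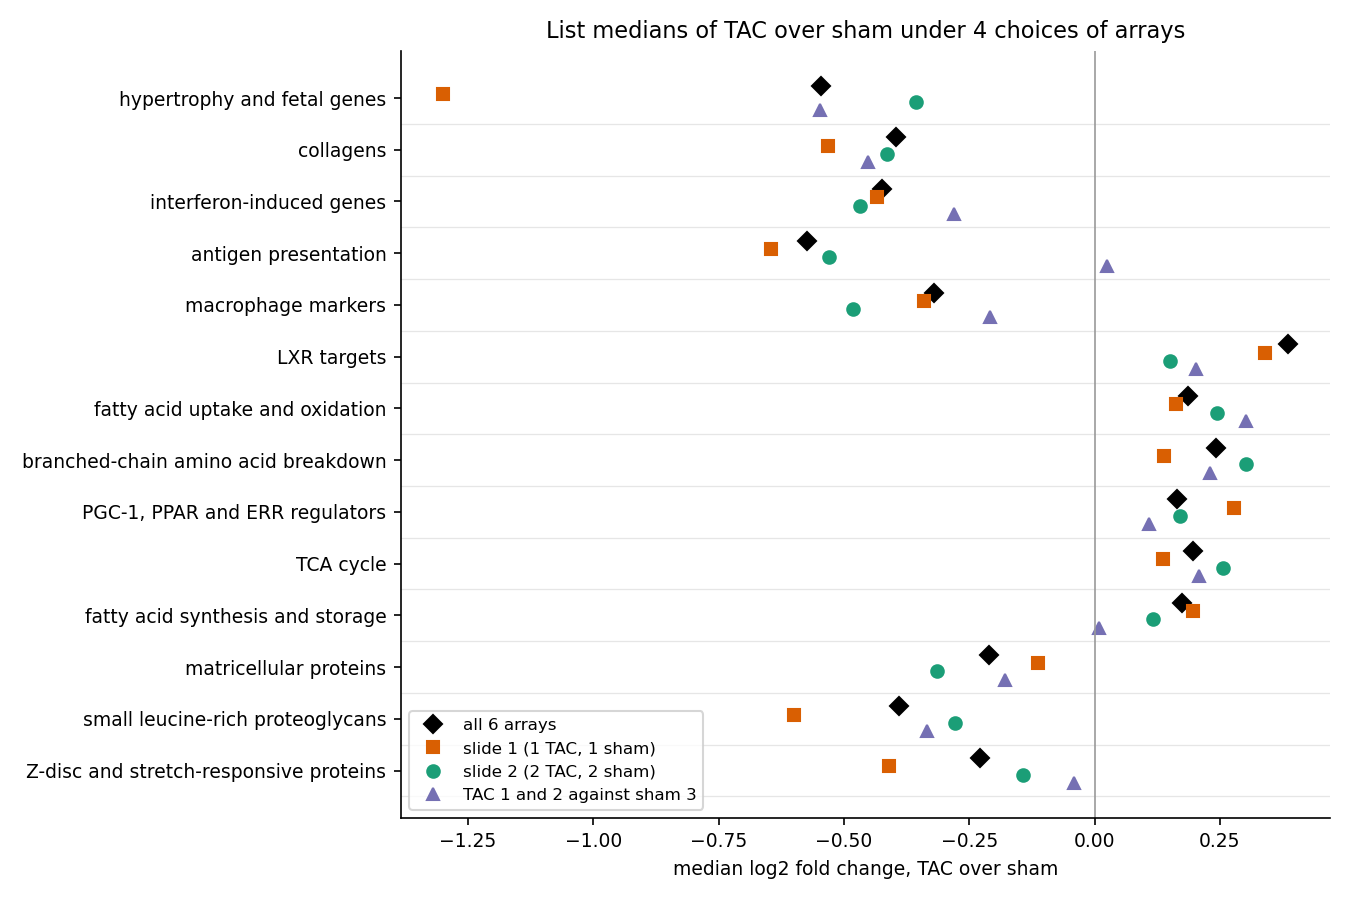
Median log2 fold change, TAC over sham (x axis), of 14 gene lists (rows) over all 6 arrays, on slide 1 alone, on slide 2 alone and on the label-matched arrays. Hypertrophy genes lie at −1.30 on slide 1 and −0.36 on slide 2, and antigen presentation at −0.57 over all 6 arrays and 0.026 on the label-matched arrays.

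Among the 15 largest positive differences that passed the unadjusted threshold with no overlap were Scd1, Ces1d, Ndufb10, Kcnv2 and Il15, given above. Sun3, a nuclear envelope protein best known from testis, met that rule too, but it was detected on 2 of 3 TAC and 0 of 3 sham arrays, so only a bound of at least 1.38-fold higher holds (adjusted p = 0.643 by limma) and it has no rank among them. Tmem82, a membrane protein, read 7.47, 7.30 and 8.08 in TAC hearts, against 5.92, 7.04 and 6.91 in sham hearts, a difference of 0.99 (standard error 0.284, unadjusted p = 0.00403 by limma). It had −0.63 in Wt hearts, and the difference of the TAC effects was 1.62 (unadjusted p = 0.00115 by limma). The others were Snai3 (1.03), a zinc finger factor, Ano10 (0.97), of the anoctamin family, Tbc1d10c (0.93), a GTPase regulator, H4c6 (0.90), a histone gene, Pde7a (0.82), a cyclic AMP phosphodiesterase, Stard10 (0.80), a lipid transfer protein, Adam23 (0.79), a membrane disintegrin, and Dbh (0.79), the enzyme that makes noradrenaline. On the sham arrays H4c6, Pde7a and Adam23 were each detected on 1 of 3 and Dbh on 2 of 3. On the label-matched arrays the difference was 0.33 for Snai3, 0.50 for Ano10, 0.62 for Tbc1d10c, 0.55 for H4c6, 0.51 for Adam23, 0.20 for Dbh and 0.47 for Tmem82, none of which passed, while Pde7a had 1.05 and Stard10 0.97 and passed.

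The 15 largest negative ones were led by Myh7 and Timp1. Aqp8, a water channel, read 6.31, 5.86 and 4.84 in TAC hearts, against 7.58, 7.65 and 6.43 in sham hearts, a difference of −1.55 (standard error 0.512, unadjusted p = 0.00974 by limma), and was detected on 2 of 3 TAC arrays. It was −0.35 on the label-matched arrays and did not pass (unadjusted p = 0.622 by limma). Itgbl1, a secreted protein with integrin-like repeats, read 7.01, 7.70 and 7.38 in TAC hearts, against 8.83, 8.74 and 8.50 in sham hearts, a difference of −1.33 (standard error 0.366, unadjusted p = 0.00312 by limma). Its effect in Wt hearts was 1.08, and the difference of the TAC effects was −2.41 (unadjusted p = 0.000357 by limma). The rest included the matrix genes Comp, Lox, Mfap4 and Mfap5 and the cell adhesion protein Svep1 (−1.09), beside Fcgr4 (−1.21), an Fc receptor, Meox1 (−1.19), a homeobox factor, Chil1 (−1.15), a chitinase-like protein detected on 1 of 3 TAC arrays, and Rcan1, Ccl8 and Ifit3.

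Markers of other cell types were checked for the groups. Endothelial markers had summed levels of 13598 to 14679 in TAC hearts and 13191 to 15854 in sham hearts, and 1 of 17, the receptor Tie1 (0.49), passed the unadjusted threshold. Smooth muscle and pericyte markers had 18362 to 23974 in TAC hearts and 18895 to 22003 in sham hearts, with 2 of 13 lower. Atrial cardiomyocyte markers had 22718 to 34861 in TAC hearts and 28265 to 32366 in sham hearts, and 1 of 10, Stard10, was higher. Transcripts of liver and kidney, which the left ventricle should lack, had 18315 on TAC array 1 and at most 8653.6 on the other 5 arrays. Their median over 20 genes was 0.89 with all arrays and 0.062 without TAC array 1, and 0 of 20 passed. Without that array the median was −0.43 for hypertrophy genes, −0.30 for collagens, −0.45 for interferon-induced genes and 0.31 for LXR targets. In Wt hearts the liver and kidney median was −1.18 with 0 of 20 above 0. In the test of the difference, 5 of the 20 were higher (4.2% of all genes). The Apoa2 signal was 2937.6 on Wt sham 3 and 1875.9 on Wt TAC 4, against 2499 on TAC array 1. These Wt arrays entered all Wt values and that test. Of lymphocyte and neutrophil markers 1 gene each was measured, and 0 passed.

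Side by side, the lists of LXRα-Tg and Wt hearts had TAC effects of like sign for interferon-induced genes (−0.42 and −0.42) and antigen presentation (−0.57 and −0.41). They had effects of opposite sign for hypertrophy genes (−0.55 and 0.48), collagens (−0.40 and 0.28), LXR targets (0.38 and −0.19) and FA oxidation (0.19 and −0.11). On the label-matched arrays the antigen presentation median of LXRα-Tg hearts was 0.026. In the LXRα-Tg comparison Nr1h3 was high on TAC arrays 1 and 2 and on sham array 3. Surgery and Nr1h3 level were thus partly mixed in these TAC effects. The 2 comparisons share no array. The Wt effects include Wt TAC 2 and Wt sham 3, with high Nr1h3, and Wt sham 1, which went against the described sex. Over all genes, 0 passed the test of the difference of the TAC effects (smallest adjusted p = 0.185 by limma), with 329 higher (4.2%) and 474 lower (6.05%) below an unadjusted p of 0.05.

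**Figure D5:**
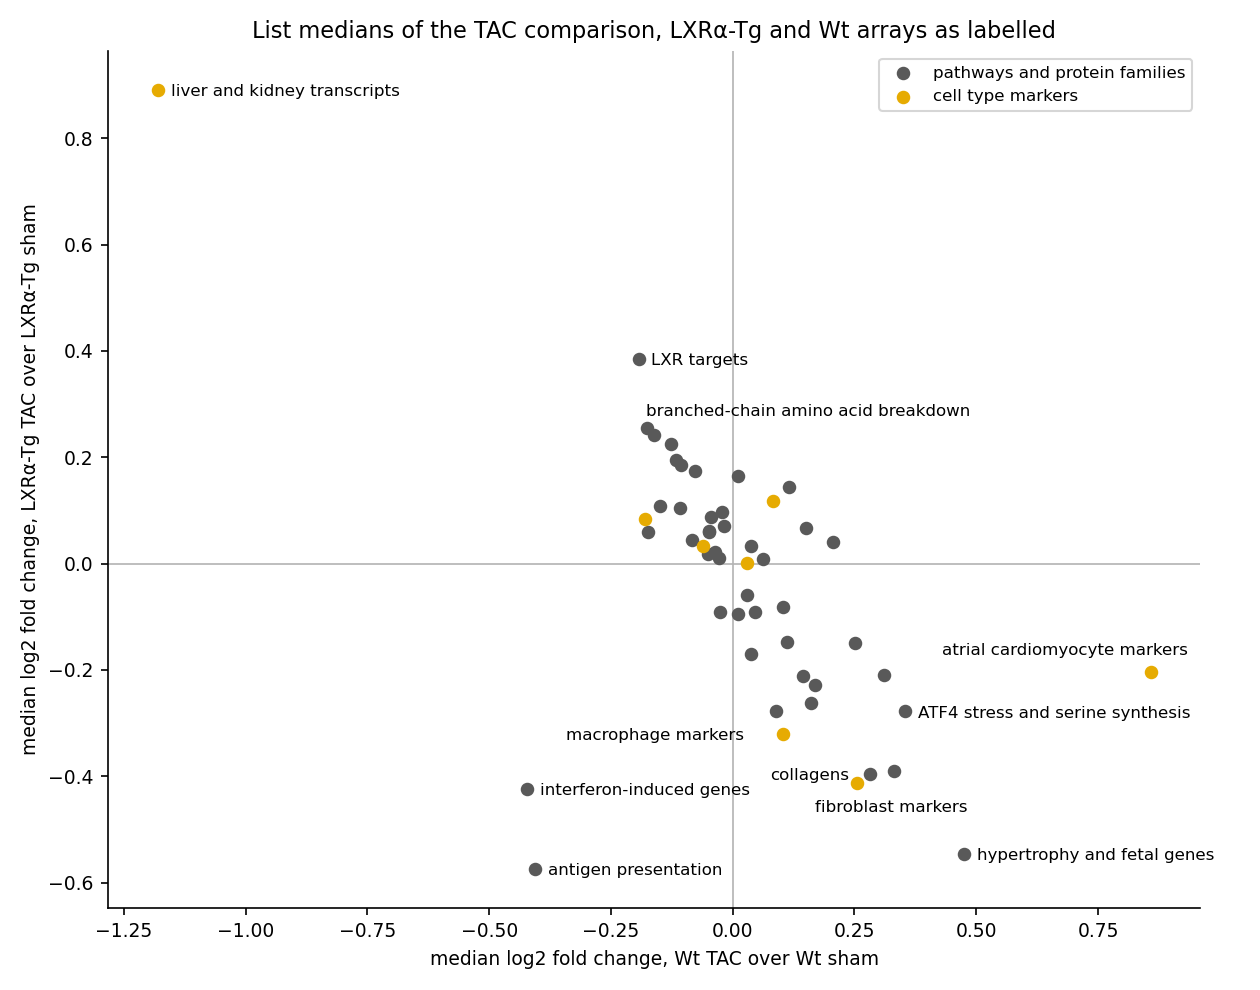
Median log2 fold change after TAC of each gene list with at least 6 measured genes, in LXRα-Tg hearts (y axis) and in Wt hearts (x axis). Hypertrophy genes and collagens lie at lower right (below 0 in LXRα-Tg, above 0 in Wt) and interferon-induced genes and antigen presentation at lower left.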

How the data were processed

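LV RNA was read on 13 Illumina mouse BeadChip arrays. The first table the authors deposited holds a signal intensity per probe, with background subtracted, made in GenomeStudio 2011.1 per the submitters' processing notes, and a detection p-value against negative controls. A second deposited table of processed intensity values, quantile normalized on the same scale, was used as an alternative. Signals were corrected and quantile normalized by the neqc function (limma 3.58.1, R 4.3.3) with an offset of 16, which infers the negative controls from detection. Of 25697 probes, 11028 were detected at p under 0.01 on at least 3 arrays, and the brightest probe stood for each of 7837 genes (1936 had several). A group-means fit on all 13 arrays left 9 residual degrees of freedom. The methods name no test for the arrays. The fit was tested on simulated data. Symbols came from the platform table. Promoters came from RefSeq (GRCm38.p6). Figures were drawn with matplotlib 3.10.9 in Python 3.11.15.

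Named genes are the 15 largest differences in each direction that passed an unadjusted p under 0.05 with no overlap, genes fixed from the study, and the 4 members of lowest p in each list. Ptpn6, Agpat2, Adipoq and Gnl3l were chosen after their values were seen. The gene lists and rules were chosen with earlier results of these data known. The alternatives concerned background, scaling, filter, slide, arrays left out, array weights, probes and other tests. The number of arrays limits the precision.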

Additional observations from a re-analysis of the deposited data

Results flagged for a closer look

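Nr1h3 gave a high signal on 2 arrays outside this comparison whose labels carry no transgene, 31926.6 on the array labelled Wt TAC 2 and 27568.2 on the array labelled Wt sham 3. Both values lie in the range of the 3 LXRα-Tg arrays with high Nr1h3. These arrays entered the fit only through the shared estimate of the spread and the wild-type values given beside the results.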

How the results depend on the processing

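No paired analysis was possible because the labels give the arrays no replicate numbers of their own. The count of genes called by limma over all genes was 0 under every alternative tried except 3. It was 1 with slide as a block (Oasl2), 53 on slide 1 alone, where each LXRα-Tg group is 1 array, and 1 without the 5 arrays with an Nr1h3 level against their label, where sham array 3 stands alone. That last gene was Gnl3l, a nucleolar protein whose probe was not detected on sham array 3, so that only a bound holds, at least 2.48-fold higher on TAC arrays 1 and 2 (adjusted p = 0.0455 by limma). Counts below an unadjusted p of 0.05 (243 higher and 309 lower) became 30 and 761 under median scaling, 488 and 530 with no filter on dim probes, 78 and 73 with the methods' ANOVA and Bonferroni correction, 62 and 126 with a fold minimum of 1.5, and 146 and 176 without the 5 arrays. On slide 1 alone 434 were higher. With each array left out in turn, 151 to 366 were higher and 187 to 370 lower, and 0 were called. Of the 552 genes, 539 kept their sign without the 5 arrays and 542 on slide 1.

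The hypertrophy median was −1.30 on slide 1. The collagen median was −0.48 without normexp, −0.56 under median scaling, −0.51 on the authors' processed values, −0.12 with no filter, −0.53 on slide 1 and −0.51 with array weights. Under median scaling that of interferon-induced genes was −0.64, that of macrophage markers −0.54 and that of branched-chain amino acid breakdown 0.068. The median of antigen presentation was −0.19 with no filter and turned to 0.026 without the 5 arrays. Medians also turned sign under median scaling for cardiac transcription factors (−0.057), carriers of family 25 (−0.029), glutathione metabolism (−0.11) and PGC-1, PPAR and ERR regulators (−0.050), on slide 1 for TGF-β genes (0.10) and the cell cycle (0.042), and without the 5 arrays for cytosolic ribosomal proteins (0.036). Of 118 named genes that passed an unadjusted p under 0.05, Gstk1 (−0.13) and H2-DMb1 (0.078) turned sign without the 5 arrays. Of 114 that did not pass, 16 turned, among them Nppa (0.36), Slc2a1 (−0.16), Prkaa2 (−0.09), Myot (0.39), Cacna2d1 (−0.22), Hspb7 (0.20) and Hmgcs1 (−0.13). The cause was not tested.

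With each array left out, medians ranged from −0.71 to −0.42 for hypertrophy genes, −0.44 to −0.30 for collagens, 0.113 to 0.46 for LXR targets, 0.20 to 0.34 for branched-chain amino acid breakdown, 0.14 to 0.25 for FA oxidation, −0.59 to −0.40 for interferon-induced genes, −0.81 to −0.39 for antigen presentation and −0.50 to −0.25 for macrophage markers. Dim probes near the detection limit allow only bounds, as given for Irf7, Podn, Cdk1, Bub1b, Ryr2 and Sun3.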
